A study of Mus musculus and Homo sapiens with 4 samples.

Results

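ZBTB17 is the human gene that encodes Miz1, the transcription factor precipitated in this study, and 8 Miz1 peaks lay within it in cells of the human line labelled MDA-MD-231. The peaks were chosen by position: every peak of the human list that overlapped the 34.26 kb interval of the gene on chromosome 1 (build hg19) by at least 1 base. They are 8 of the 2911 peaks of that list, and the series also holds a list of 261 peaks from mouse cells. The gene was singled out because its peaks had been seen to stand close together with high scores, so their number, spacing, width and score are given as a description with no test. The limits of the interval decided no membership: the first peak began 60 bp inside the lower limit, and the nearest peaks outside the interval lay 141.1 kb below it and 112.9 kb above it.

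Miz1 is a zinc-finger protein with a BTB (POZ) domain at one end, through which it pairs with itself and with other proteins. It binds near the start sites of genes, where it can activate transcription, and it can repress when it is joined by the oncoprotein MYC or by other partners. ZBTB17 is known to be read from the minus strand of chromosome 1, so the higher coordinates are taken to hold the start of the gene and the lower coordinates its 3′ end. The strand is background knowledge and was not read from the files used, and each mention of the 3′ end or the start below rests on it.

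The human material was 1 chromatin immunoprecipitation (ChIP-seq) library made with the antibody G18 and 1 library of input chromatin, both from MDA-MD-231 cells with no treatment named in the labels. The mouse material was 1 library with the antibody H190 and 1 input library from neuronal progenitor cells at E13.5. Only peak lists were used, with 1 Miz1 library for each kind of cell, so no value below has a replicate error, and the input chromatin was not analysed here. The depth of sequencing is unknown, so a stretch without a peak is one where none was called, and not one shown to be unbound.

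All 8 peaks lay at the 3′ end of ZBTB17, and no peak was called near its start. The first covered base was 16268424 and the last was 16275040, so the peaks fell within 6.62 kb, or 19.3% of the gene interval. The remaining 27.59 kb up to the upper limit, 80.5% of the interval and including the start of the gene, held no peak. Of 4 equal parts of the interval, the one at the lower end held all 4266 covered bases and the others held 0. From the last of the 8 peaks to the next peak of the chromosome, 140.5 kb were uncovered.

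Position, width and score are given next for each peak in order of rising coordinate, which is from the 3′ end of the gene inwards. The score is the authors' value deposited for each peak, whose scale neither the labels nor the files define. It is not read here as the amount of Miz1 bound. Scores pile up at 3100, here called the ceiling, and peaks tied at that value cannot be ranked against each other. In the whole list 2 peaks scored higher, up to 3224.6, and they are counted with the peaks at the ceiling; the ZBTB17 peaks at the ceiling all scored exactly 3100. The first peak was the closest to the 3′ end (chr1:16268424-16269277) and was 854 bp wide, with a score at the ceiling. The second (chr1:16269514-16269734) was the narrowest of the 8, at 221 bp, with a score of 2851. The third (chr1:16269851-16270485) was 635 bp wide and at the ceiling. These peaks alternated between wide and narrow while the score stayed at or near its ceiling.

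The fourth peak (chr1:16270629-16271795) was the widest, at 1167 bp, and was at the ceiling. The fifth (chr1:16272038-16272404) was 367 bp wide and had the lowest score of the 8, 1994. The sixth (chr1:16272605-16272832) was 228 bp wide with a score of 3002. Beyond the fourth peak no peak was wider than the 400 bp of the seventh, so the wide peaks lay towards the 3′ end. The seventh (chr1:16273374-16273773) and the eighth (chr1:16274647-16275040, 394 bp) were both at the ceiling. The 2 peaks deepest in the gene were at the ceiling, like 3 of the 4 nearest its end. Since peaks tied at the ceiling cannot be ranked, no rise or fall of score along the gene can be read from them.

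**Figure D1:**
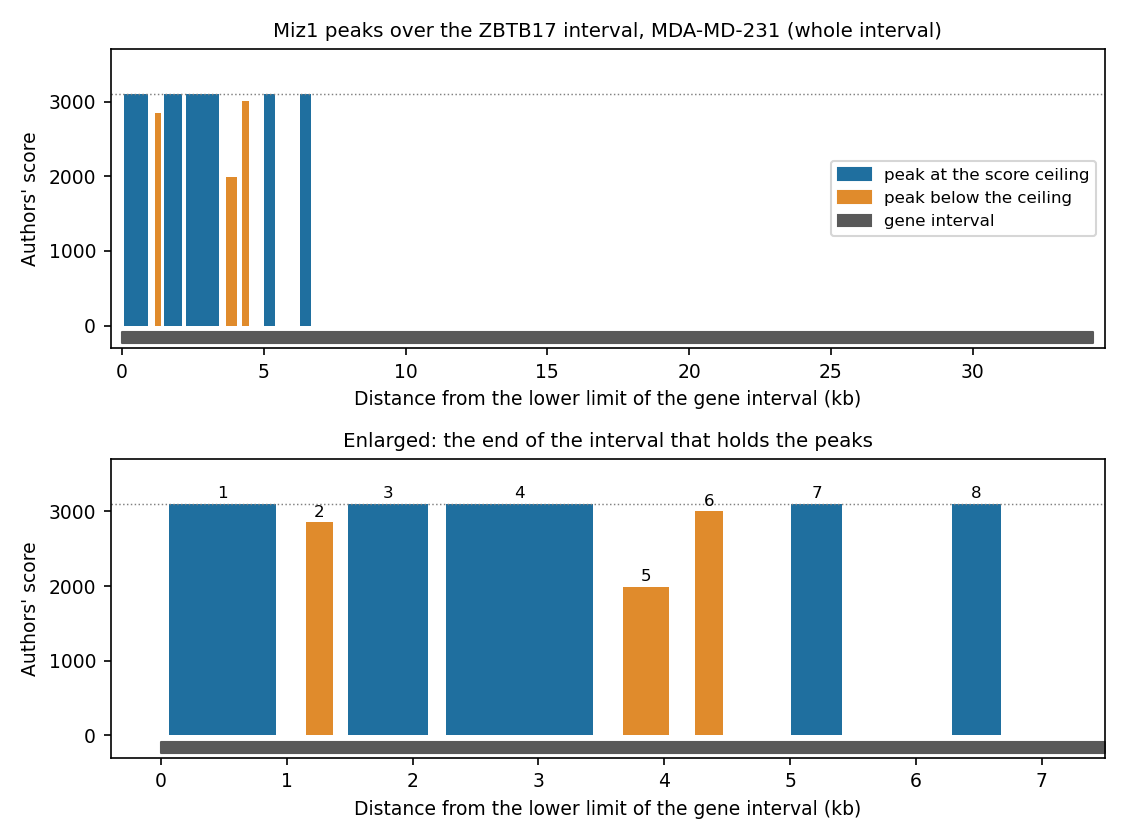
Position along the ZBTB17 interval (x axis, kb from its lower limit, the 3′ end of the gene) against the authors' score (y axis) for the 8 Miz1 peaks of the single MDA-MD-231 library, over the whole interval above and enlarged below with the peaks numbered. Bar width is the peak width to scale, colour marks the 5 peaks at the ceiling of 3100 (dotted line) and the 3 below it, and all 8 bars stand in the first 6.676 kb of the 34.26 kb interval.

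The peaks were separated by 7 uncovered gaps that together made up 2351 bp, so 64.5% of the stretch from the first to the last peak was covered. In order from the 3′ end the gaps were 236, 116, 143, 242, 200, 541 and 873 bp, with a median of 236 bp. The first 5 gaps were all under 250 bp, and the 2 longest were the 2 farthest from the 3′ end. Per the labels' protocols, DNA of about 200 bp was cut from a gel before sequencing. In 4 of the 7 gaps the uncovered stretch was longer than such a fragment, and in 3 it was as long or shorter.

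Distances between the centres of neighbouring peaks ran from 497.5 to 1270 bp, in the order 773.5, 544, 1044, 1009, 497.5, 855 and 1270 bp. No regular spacing is visible in them.

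Scores of the ZBTB17 peaks were high for the list as a whole. Of the 8 peaks 5 reached the ceiling, where 161 peaks, or 5.53% of the list, did so. A score of 2000 or more was reached by 7 of the 8, against 7.52% of the list. The eighth value, 1994 at the fifth peak, was still higher than the scores of 92.4% of the list, whose median was 185. Chromosome 1 held 325 peaks with 25 at the ceiling, and 20.0% of those 25 lay in ZBTB17. Scores and positions come from the same peak calling that singled the gene out, so nothing is read from these shares.

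Widths, unlike scores, lay across the ordinary range of the list. The 8 widths ran from 221 to 1167 bp with a median of 397 bp, where the list ran from 87 to 2961 bp with a median of 346 bp. Of the 8, 6 were wider than the list's median and 3 were wider than 500 bp. Within ZBTB17 the 3 peaks below the ceiling (221, 228 and 367 bp) were also the 3 narrowest, and the 5 at the ceiling were 394 to 1167 bp wide. Peaks at the ceiling were wide in the whole list too, with a median of 1068 bp against 346 bp. The order of widths is therefore not read as particular to ZBTB17.

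Set against peaks of like score, the ZBTB17 peaks were narrow. The 156 other peaks at the ceiling were 1072.5 bp wide in the median, with quartiles at 879 and 1361 bp, and the 5 in ZBTB17 had a median of 635 bp. Of these 5, the widest alone exceeded the ceiling peaks' overall median of 1068 bp. The seventh and eighth ZBTB17 peaks, of 400 and 394 bp, were among the narrowest at the ceiling: only 2 of the 156 others were no wider than 400 bp, and the narrowest was 316 bp.

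Set against peaks of like width, they scored high. Between 221 and 367 bp, the widths of the 3 ZBTB17 peaks below the ceiling, the list held 1176 other peaks with a median score of 165. Only 7 of these, or 0.595%, scored at least as high as the lowest ZBTB17 peak, and they were 242 to 346 bp wide. At the widths of the second and sixth ZBTB17 peaks, 221 to 228 bp, the list held 72 other peaks, with a median score of 142 and a highest score of 1527. The ZBTB17 peaks of those widths scored 2851 and 3002, and 0 of the 72 reached the lower of these values. Width and score come from 1 peak calling on 1 library, so these counts describe the list.

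**Figure D2:**
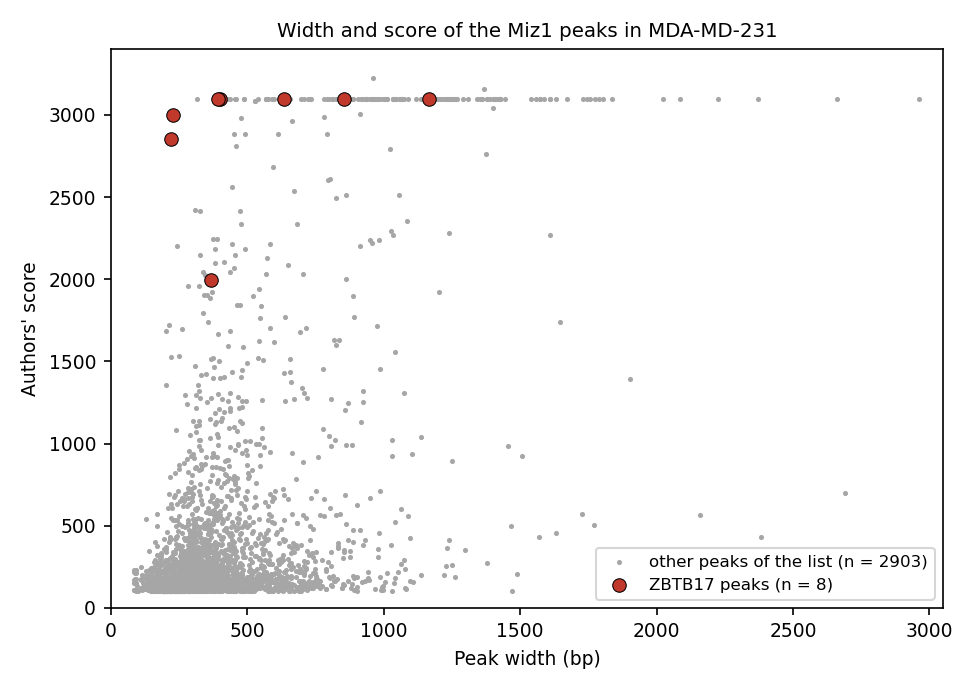
Peak width (x axis, bp) against the authors' score (y axis) for all peaks of the MDA-MD-231 list, with the 8 ZBTB17 peaks in red and the other 2903 in grey. The 3 ZBTB17 peaks below the ceiling of 3100 lie at 221 to 367 bp, where the other peaks have a median score of 165, and of the 5 at the ceiling 4 are narrower than the ceiling peaks' median of 1068 bp and 1, of 1167 bp, is wider.

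Other places where peaks followed each other closely were then compared with ZBTB17. A run is a set of consecutive peaks with gaps under 1 kb, and 219 peaks, or 7.52% of the list, had such a neighbour. The 8 ZBTB17 peaks formed 1 run. Another 98 runs were found: 86 of 2 peaks, 9 of 3 peaks and 3 of 4 peaks, and none held 5 or more. Gaps in ZBTB17 were of the same order as elsewhere: the 113 gaps of the other runs had a median of 210 bp (quartiles 70.0 and 531 bp), against 236 bp in ZBTB17. All these gaps are under 1 kb by the definition of a run, so their likeness in length is partly fixed in advance. The other runs had fewer peaks.

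Scores within the other runs were also set beside those in ZBTB17. A peak at the ceiling occurred in 21 of the 98 other runs, and none of the 98 held more than 1. In the whole list 5.53% of peaks were at the ceiling, and 86 of the 98 runs were pairs. Runs with more than 1 such peak would be rare at that share, so nothing is read from their absence. Among the 156 other peaks at the ceiling, 21 had a peak within 1 kb and 135, or 86.5%, had none. Standing alone was usual in the whole list, where only 219 of 2911 peaks, or 7.52%, had such a neighbour. The share of 86.5% therefore does not set the ceiling peaks apart as isolated. The lowest score within a run had a median of 135 over the other runs. It was 1000 or more in 3 of them, each a pair of peaks. The highest such value, 2418, belonged to a pair on chromosome 17 (chr17:2290140-2291439) whose other peak was at the ceiling and whose gap was 5 bp. In ZBTB17 the lowest of 8 peaks scored 1994. The gene was singled out for close peaks with high scores, so its run length and scores repeat that choice and only describe the list.

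**Figure D3:**
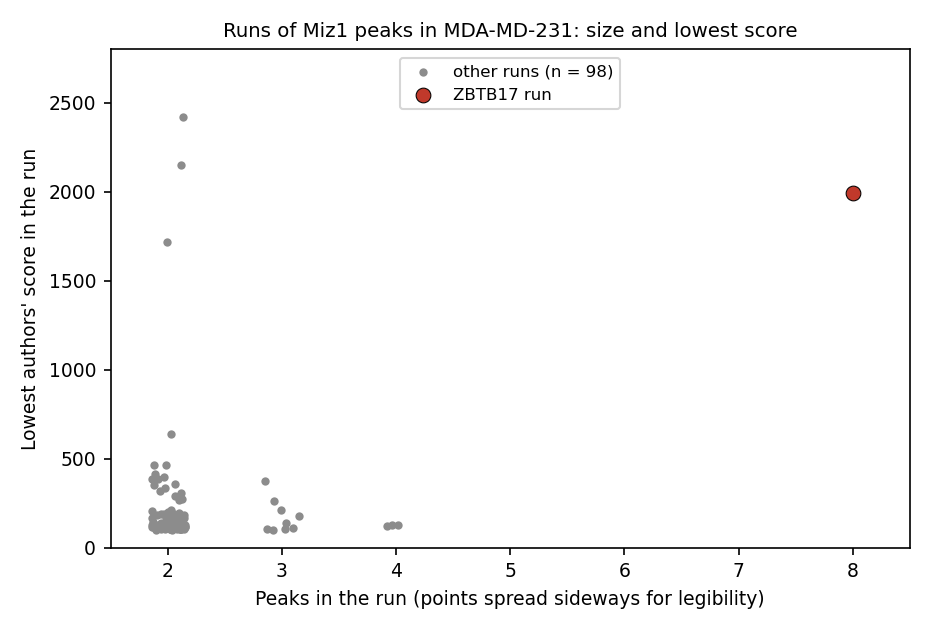
Number of peaks in a run (x axis) against the lowest authors' score in that run (y axis) for the 99 runs of 2 or more peaks in the MDA-MD-231 list, each point 1 run. The ZBTB17 run (red) stands at 8 peaks and a lowest score of 1994, while the 98 others hold at most 4 peaks and mostly have a lowest score near their median of 135.

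The 5 other runs with the most peaks, with ties broken by covered bases, were given the same measurements. The first lay on chromosome 2 (chr2:1346113-1350074) with 4 peaks, scores of 122 to 1391 and 92.0% of its 3.96 kb covered. Both runs of 4 peaks on chromosome 17 were less filled. The one at chr17:18964631-18967980 had scores of 131 to 339 and 68.5% of its stretch covered. The one at chr17:19090733-19094124 had scores of 128 to 411 and 59.8% covered. These 2 runs were closest to ZBTB17 in the share covered, with 64.5% there, but none of their peaks scored above 411.

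The remaining pair of runs had 3 peaks each. On chromosome 12 (chr12:133135598-133138769) 1 peak was at the ceiling, the lowest scored 108, and 87.2% was covered. On chromosome 4 (chr4:49305215-49308474) scores ran from 142 to 167 and 78.7% was covered. Of these 5 runs, the one on chromosome 12 was the only one to reach the ceiling. It did so in 1 peak, beside others with much lower scores.

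**Figure D4:**
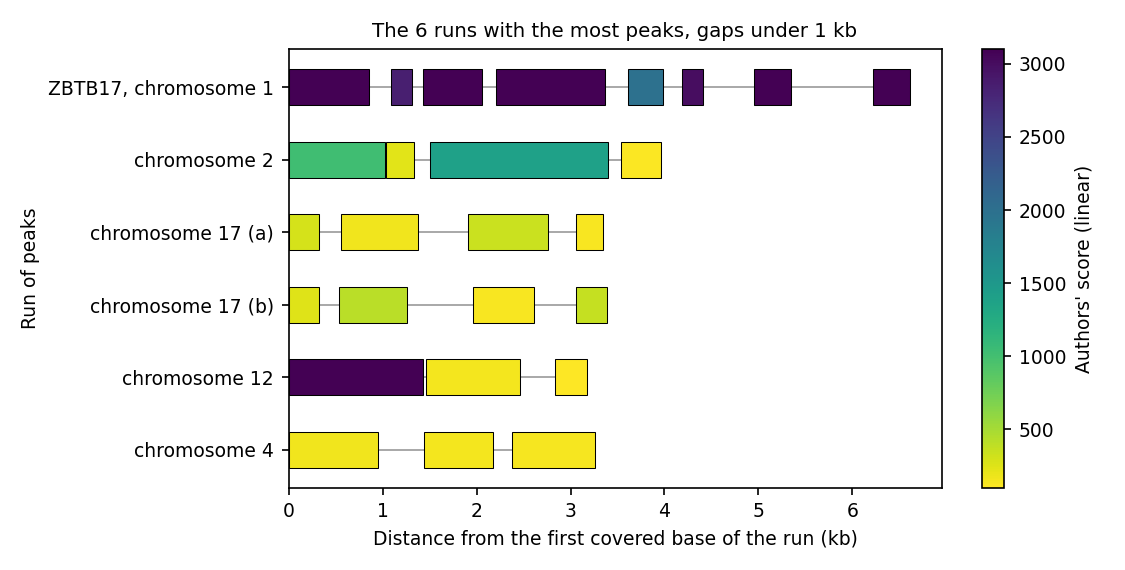
Maps of the ZBTB17 run and of the 5 other runs with the most peaks in the MDA-MD-231 list, drawn to scale from the first covered base of each (x axis, kb), with boxes for peaks and colour for the authors' score; (a) and (b) are the runs at the lower and higher coordinates of chromosome 17. The ZBTB17 run spans 6.62 kb with all 8 boxes at scores of 1994 or more, and the others span 3.17 to 3.96 kb with most boxes at low scores.

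Counted in windows as long as the gene interval, each beginning at a peak, ZBTB17 did not hold the most peaks. Elsewhere 12 such windows, which overlap each other and lie on chromosomes 4 and 11, held 8 peaks or more. The fullest held 13 peaks on chromosome 4 (bases 49294014 to 49326081), with a median score of 142, a highest score of 457 and 0 at the ceiling. Covered bases were at least the 4266 of ZBTB17 in 18 windows elsewhere, with at most 12417 in a window on chromosome 4. No window of this length elsewhere held more than 2 peaks at the ceiling, against 5 in ZBTB17. Since ZBTB17 was singled out for close peaks with high scores, nothing is read from this difference.

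The nearest other peaks on chromosome 1 lay far from ZBTB17, between 140.5 and 1829 kb from its peaks, and scored lower. The 5 nearest below and the 5 nearest above the gene scored 105 to 987, and 0 of these 10 were at the ceiling. The share of the whole list at the ceiling was 5.53%, so 0 of 10 does not set these neighbours apart. Their median was 326, against 185 in the whole list. The nearest 2 below (chr1:16125590-16125936 and chr1:16126666-16127270) lay 142.5 and 141.2 kb from the first ZBTB17 peak and scored 105 and 174. The nearest 2 above (chr1:16415560-16415934 and chr1:16471589-16473043) lay 140.5 and 196.5 kb from the last and scored 523 and 987. The highest of these 10 scores was thus below the lowest in ZBTB17, as were the scores of 92.4% of the list.

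Whether the separate peaks and the gaps between them follow the exons and introns of ZBTB17 was not tested, because no hg19 exon positions were used here. The values that bear on the arrangement are those above: 8 separate covered stretches at the 3′ end, uncovered gaps of 116 to 873 bp, and no peak over the start of the gene. Binding of Miz1 along its own gene and DNA copied from the spliced transcript, such as a cDNA or an expression construct, cannot be told apart from the peak list alone. Zbtb17 in the mouse progenitor cells was not analysed, since the mouse list and the mouse gene table used different genome builds.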

How the data were processed

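Per the submitters' processing notes, CASAVA, FastQC, Bowtie 0.12.7 and MACS 1.4.2 and the builds mm9 and hg19 were used; settings and the part of the input in peak calling are not stated there. Each deposited list gives a chromosome, start, end, name and the authors' score per peak, with no header. Other deposited columns used, the start and end, are in bp and are printed here counting from 1. The human list was called on 1 library.

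The gene interval, the members and the lists were chosen with earlier results of these data known. Peaks overlapping the interval by at least 1 base were taken, and runs were joined across gaps under 1 kb, in Python 3.11.15. The finding of runs was tested on a simulated list. Named runs were the 5 others with the most peaks, ties broken by covered bases, since genes could not be assigned in hg19. For the same reason the planned exon results and the lists of Miz1 partners, targets and ZBTB genes were not analysed here. Zbtb17 in progenitor cells was not analysed because the mouse list and gene table are in different builds. No test was made. Alternatives changed the interval, scores, peak ends and gap length.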

Additional observations from a re-analysis of the deposited data

How the results depend on the processing

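Of 9 alternatives over 4 results, 7 left the value within 1.5 times that reported. The number of ZBTB17 peaks stayed at 8 with 1 or 10 kb added on both sides of the interval and by peak centre. By construction, keeping peaks at the score ceiling left 5 peaks and 3450 covered bases in place of 4266, and trimming 100 bp from both ends of each peak left 2666; the 5 peaks and the 2666 bases are the values beyond 1.5 times. With gaps under 500 bp the run held 6 peaks, and with gaps under 2 kb it held 8. At a score of 2000 or more 7 peaks were counted in place of the 5 at the ceiling. The 6 alternatives for exons were not run, because no hg19 exon positions were used here. No paired analysis was possible because each kind of cell has 1 Miz1 library and no test was made. Depth is unknown, so the precision of each peak's score and ends is not known.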
